A study of Solanum lycopersicum with 12 samples.

Results

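The aquaporin genes Aqp2, LePIP1 and TIP (NCBI gene identifiers 543640, 543950 and 543951 in the platform's annotation) were followed through root sectors of tomato. They are 3 probe sets whose gene symbols in the array's annotation are aquaporin names, of 909 with a gene symbol and 10101 tested in all. They were chosen by name. Their levels come from 12 Affymetrix tomato arrays in 4 groups of 3. The groups were the outer root sector, epidermis plus cortex (EC), and the stele (S), both cut out by laser microdissection, of wild-type tomato var. Beta (WT) and of the same variety carrying 35S:AtHMA4 (line 4, called L4 below). AtHMA4 is a Zn transporter of Arabidopsis, the CaMV 35S promoter is active in most tissues, and L4 is a single transgenic line. All plants of both genotypes grew at 5 μM Zn, so no other Zn supply enters these comparisons. By the labels exposure lasted 15 days and the plants were 25 days old. The published methods give a shorter exposure and younger plants. Each sample came from roots of 6 plants, pooled as fragments of 2.0 cm taken behind the apical 1.5 cm, which were left out. Within a genotype, the same replicate number in the EC and the S was read as 1 root pool, and the published methods describe the pools as coming from independent experiments.

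Aquaporins are channel proteins that let water, and in some cases small uncharged solutes, cross membranes. Plasma membrane intrinsic proteins (PIPs) sit in the plasma membrane and fall into the subgroups PIP1 and PIP2, and tonoplast intrinsic proteins (TIPs) sit in the membrane of the vacuole. In roots, water that crosses membranes on its way from soil to xylem can pass such channels in epidermis, cortex, endodermis and stele. The name LePIP1 is listed in the current RefSeq annotation as a synonym of PIP2-7, together with SlPIP2.8, names of the PIP2 subgroup. The platform's own gene identifier for LePIP1 has no entry there. TIP is listed with the synonyms LeTIP and RB7, and RB7 is also the name of a root tonoplast aquaporin of tobacco. Aqp2 is listed without a subgroup. Each gene had 1 probe set, and whether the probes also bind other PIP or TIP transcripts was not tested.

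The arrays give log2 values without a stated normalization method, their medians lay between 3.72 and 4.02, and RNA was amplified before labelling, with 3' control probe sets above their 5' partners by at least 7.63 for actin on every array. L4 EC replicate 2 was unlike the other arrays, with an SD over probe sets of 3.04 against 3.32 to 3.48 on the others, an upper quartile of 6.81 against 7.83 to 8.26, and a mean of its 27 spike-in control probe sets of 13.9 against 9.65 to 12.4. Marker genes did not separate the sectors. Of 7 probe sets of EC markers, 6 had higher estimates in the EC of the WT, as had 3 of 4 probe sets of S markers, and limma called none of these differences. The transgene itself has no named probe set and was not analysed here. All 3 aquaporins lay in the upper part of every array: on the 12 arrays 74.4% to 90.7% of the probe sets were below Aqp2, 62.8% to 82.5% below LePIP1 and 64.9% to 95.7% below TIP.

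Aqp2 had its highest group mean in the S of transgenic plants and similar means in the other groups. In the EC of the WT its log2 values were 9.84, 9.25 and 8.08 in replicates 1, 2 and 3, a mean of 9.06 ± 0.90 (SD, n = 3). In the S of the WT they were 9.46, 8.75 and 8.09, a mean of 8.77 ± 0.68 (SD, n = 3). The sectors of the WT thus covered nearly the same range. In the EC of L4 the values were 10.61, 7.18 and 8.61, a mean of 8.80 ± 1.72 (SD, n = 3), and in the S of L4 they were 9.35, 10.90 and 9.59, a mean of 9.95 ± 0.84 (SD, n = 3). The lowest of all 12 values was that of L4 EC replicate 2, the array with compressed values, and there 76.9% of the probe sets lay below Aqp2 against 78.0% and 89.4% on the other L4 EC arrays. The order of the group means was L4 S, WT EC, L4 EC and WT S. No neighbours in this order differed beyond their spread, and the arrays overlapped in every pair of groups compared.

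LePIP1 had group means within a narrow band, with 1 low value. In the EC of the WT its log2 values were 8.41, 9.39 and 6.16 in replicates 1, 2 and 3, a mean of 7.99 ± 1.65 (SD, n = 3). In the S of the WT they were 8.65, 7.15 and 8.35, a mean of 8.05 ± 0.79 (SD, n = 3). The highest and the lowest of all 12 values were therefore both in the WT EC. In the EC of L4 the values were 9.04, 7.79 and 8.05, a mean of 8.30 ± 0.66 (SD, n = 3), and in the S of L4 they were 7.35, 9.35 and 8.78, a mean of 8.49 ± 1.03 (SD, n = 3). From high to low the means ran L4 S, L4 EC, WT S and WT EC. The whole span of these means was smaller than the SD of any group, and the arrays overlapped in every pair of groups compared.

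TIP had the largest spread of the 3 genes, and it came from the WT. In the EC of the WT its log2 values were 6.69, 11.51 and 12.15 in replicates 1, 2 and 3, a mean of 10.12 ± 2.98 (SD, n = 3). In the S of the WT they were 6.68, 10.39 and 11.31, a mean of 9.46 ± 2.45 (SD, n = 3). Replicate 1 was thus far below the other WT replicates in both sectors, and nearly at the same value in each. In the EC of L4 the values were 8.76, 10.10 and 10.51, a mean of 9.79 ± 0.92 (SD, n = 3), and in the S of L4 they were 10.34, 8.61 and 9.99, a mean of 9.65 ± 0.91 (SD, n = 3). The 6 L4 values lay between those of WT replicate 1 and the highest WT values. The order of the means was WT EC, L4 EC, L4 S and WT S, with no neighbours that differed beyond their spread.

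**Figure D1:**
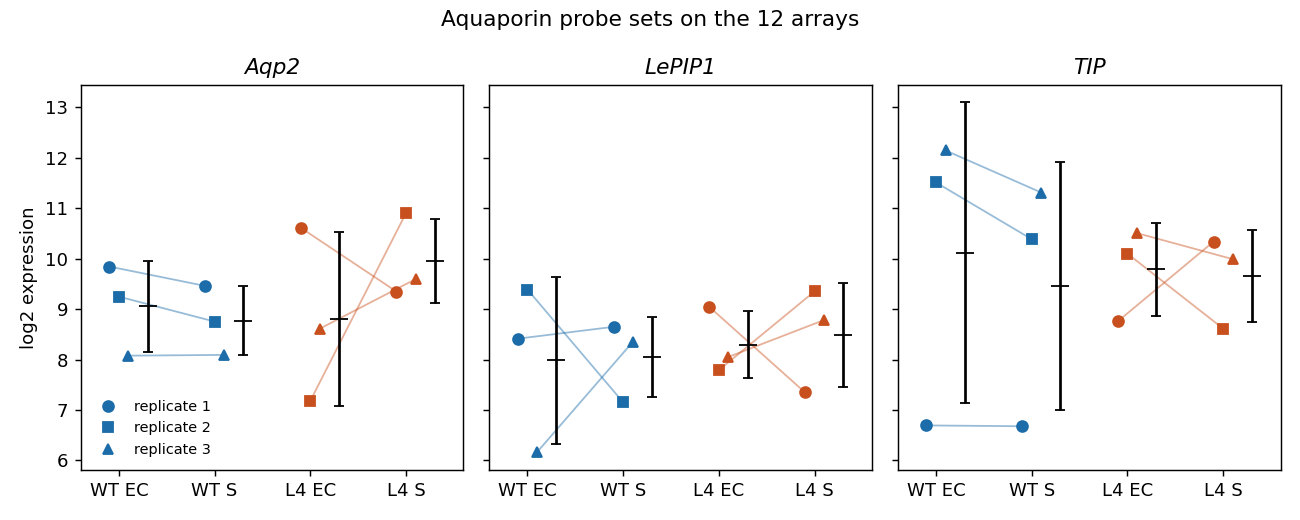
Log2 expression (vertical axis) of Aqp2, LePIP1 and TIP on each of the 12 arrays, by genotype and root sector (horizontal axis). Symbols give the replicate, thin lines join the EC and S arrays with the same number within a genotype, and black bars are the mean ± SD of 3 arrays. For TIP both arrays of WT replicate 1 lie at 6.69 and 6.68, below all other arrays.

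The low TIP values belong to a wider difference of WT replicate 1 from the other WT roots. Both arrays of this replicate lay at least 3 log2 units below all 4 other WT arrays for 8 probe sets (0.0792% of those tested), TIP among them with a gap of 3.69, and at least as far above for 91 (0.901%). This count was made after the TIP values were seen. For WT replicates 2 and 3 and for L4 replicates 1 and 2 no probe set had such a gap in either direction, and for L4 replicate 3 there was 1. Over all probe sets, deviations from the group mean correlated between the EC and S arrays of WT replicate 1 (Pearson r = 0.63 across probe sets, which are not independent), against 0.17 and 0.062 for WT replicates 2 and 3 and -0.27 to 0.031 for those of L4. For the single genes, the 6 EC deviations and the 6 S deviations from the group means had an r of 0.84 for TIP, -0.32 for Aqp2 and -0.63 for LePIP1 over both genotypes, as a description. Within the WT, both TIP and Aqp2 had the same order of root pools in the EC and the S. Within L4 neither gene did. There TIP in replicate 1 was lowest in the EC (8.76) and highest in the S (10.34). The r of 0.84 thus does not describe L4, and no r was computed for each genotype alone.

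The spread between replicates set the precision of every comparison. Within groups the pooled SD was 1.11 for Aqp2, 1.10 for LePIP1 and 2.04 for TIP on the log2 scale, where the median over all probe sets was 0.57. Aqp2 exceeded 81.1% of all probe sets in this spread and LePIP1 80.7%, but among probe sets with a mean within 0.5 of their own they exceeded 64.0% of 569 and 58.9% of 647. TIP exceeded 97.3% of all probe sets and 96.4% of the 549 at its level. For TIP the root pool means varied with an SD of 2.71 in the WT and 0.47 in L4, and the EC minus S differences with one of 0.57 and 1.57. For Aqp2 the pool means had an SD of 0.79 in the WT and 0.53 in L4, and the differences one of 0.27 and 2.50. In the WT the SD of the pool means was thus the larger for both genes, and in L4 that of the differences. These SDs are not on 1 scale, since a difference of 2 independent arrays varies more than their mean. A larger SD of the differences therefore shows no pattern by itself. For Aqp2 in L4 it includes the -3.72 of replicate 2, whose EC array had compressed values. For LePIP1 the pool means had an SD of 0.67 in the WT and 0.19 in L4, against 2.22 and 1.69 for the differences.

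**Figure D2:**
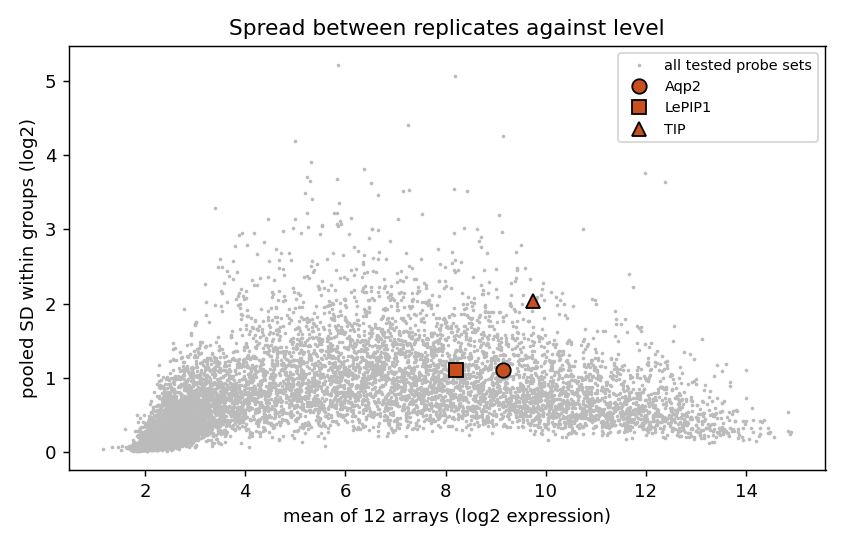
Pooled SD within the 4 groups (vertical axis, log2) against the mean of the 12 arrays (horizontal axis, log2 expression) for all 10101 tested probe sets in grey, with the 3 aquaporins as large symbols. TIP, at an SD of 2.04, lies near the upper edge at its level, and Aqp2 and LePIP1, at 1.11 and 1.10, lie within the cloud.

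Whether transgenic plants differ from the WT in aquaporin transcripts was compared first within each sector, with limma on all 12 arrays. A probe set was called at a Benjamini-Hochberg adjusted p under 0.05 and a change of at least 1.2-fold. None of the 3 aquaporins was called in either sector, nor was any other of the 10101 probe sets (0% in the EC, 0% in the S). At an unadjusted p under 0.05 with the same fold, 0 of the 3 aquaporins passed in either sector, where 7.09% of the array did for the EC and 2.49% for the S. The groups overlapped for all 3 genes, while they were apart for 12.3% of the array in the EC comparison and for 4.30% in that of the S. In bulk samples of this kind, fewer cells of a type and less RNA per cell cannot be told apart.

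The largest difference between the genotypes was that of Aqp2 in the S, which was higher in L4 by 1.18 on the log2 scale (standard error 0.85, 95% interval -0.73 to 3.09, adjusted p = 1.00 from limma). This is 2.27-fold with an interval from 0.603 to 8.52. The standard error draws on the spread of all 4 groups, those of the EC included. Fitted on the 6 S arrays alone it was 0.56 (unadjusted p = 0.088 from limma, not called), and on the 6 EC arrays alone 0.99. The sign of the S estimate did not change without any 1 array of the S, and the estimate then ranged from 0.70 to 1.53. In the EC Aqp2 was at -0.25 (standard error 0.85, interval -2.16 to 1.66, adjusted p = 0.904). Without L4 EC replicate 2 this estimate was 0.56, and without WT EC replicate 1 it was 0.14. After quantile normalization it was 0.17 and 0.54 in a fit that also held the spike-in signal, so that its direction was not settled. For LePIP1 the EC estimate was 0.31 (standard error 0.84, interval -1.59 to 2.20, adjusted p = 0.882 from limma). The estimate for the S was 0.44 (interval -1.45 to 2.34, adjusted p = 1.00). Without WT EC replicate 3, which holds the lowest LePIP1 value, the EC estimate turned to -0.61, without L4 EC replicate 1 to -0.068, and with limma's array weights to -0.28. The S estimate of LePIP1 was -0.0042 without WT S replicate 2 and 0.017 without L4 S replicate 2.

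TIP was the gene for which a single root pool moved the genotype comparison most. With all arrays its EC estimate was -0.33 (standard error 1.55, interval -3.81 to 3.15, adjusted p = 0.933 from limma). Its estimate for the S was 0.19 (interval -3.29 to 3.67, adjusted p = 1.00). In the EC the interval runs from 0.0714-fold to 8.88-fold the WT level. Without WT EC replicate 1 the EC estimate was -2.04 (standard error 1.25, adjusted p = 0.775), and without WT S replicate 1 the S estimate was -1.201 (standard error 1.47, adjusted p = 1.00). The EC estimate was positive without WT EC replicate 2 (0.37), WT EC replicate 3 (0.69) or L4 EC replicate 1 (0.19). In the S it was -0.16 without L4 S replicate 1, 1.12 without WT S replicate 3, 0.65 without WT S replicate 2, 0.71 without L4 S replicate 2 and 0.018 without L4 S replicate 3.

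**Figure D3:**
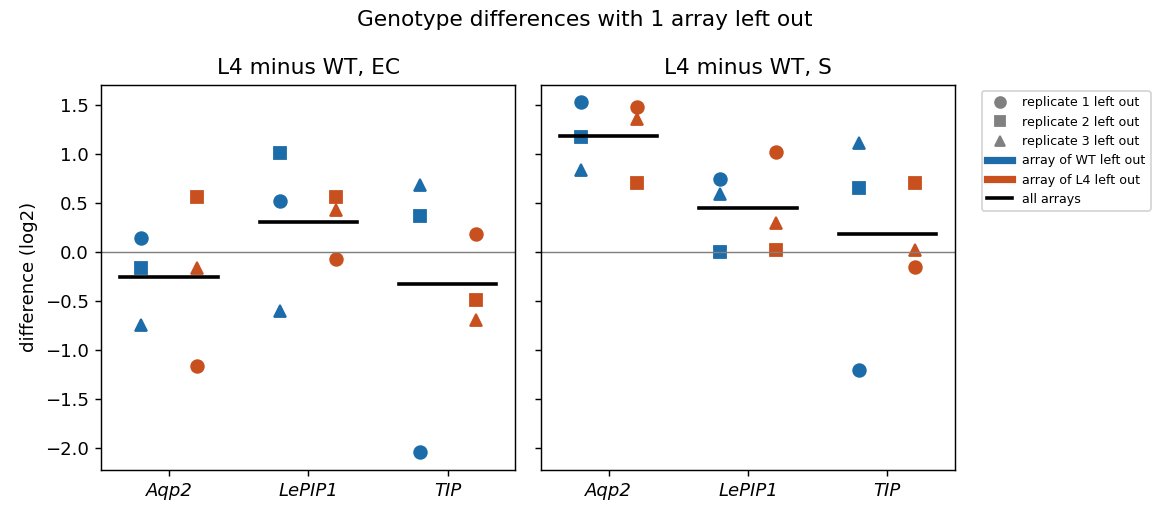
Difference of L4 minus WT (vertical axis, log2) for the 3 aquaporins in the EC (left) and the S (right), with all arrays (black line) and with 1 array left out (symbols for the replicate, blue for a WT and orange for an L4 array). Without WT replicate 1 TIP is at -2.04 (EC) and -1.201 (S), and Aqp2 in the S stays between 0.70 and 1.53.

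The genotypes were also compared over both sectors, with the EC and S arrays of each root pool averaged so that each pool counts once (3 against 3). Aqp2 had pool means of 9.65, 8.9996 and 8.08 in the WT and 9.98, 9.04 and 9.10 in L4, a difference of 0.46 (standard error 0.48, interval -0.76 to 1.68, adjusted p = 0.917 from limma). LePIP1 had pool means of 8.53, 8.27 and 7.26 in the WT and 8.20, 8.57 and 8.42 in L4, a difference of 0.38 (standard error 0.36, interval -0.54 to 1.29, adjusted p = 0.916). TIP had pool means of 6.69, 10.95 and 11.73 in the WT and 9.55, 9.36 and 10.25 in L4, a difference of -0.070 (standard error 1.38, interval -3.55 to 3.42, adjusted p = 0.988). The pools of both genotypes overlapped for each gene, as they did for all but 9.51% of the probe sets. Of all probe sets 0% were called and 6.92% passed the unadjusted threshold, none of the aquaporins among them. Without WT replicate 1 the TIP difference was -1.62 (standard error 0.39, adjusted p = 0.267 from limma). The low TIP values of that pool were already known, so this value shows its weight and is no test of the genotypes. Without 1 of the other pools the TIP difference was 0.51, 0.90, 0.015 or 0.11 (WT replicates 2 and 3, L4 replicates 1 and 2) and -0.34 without L4 replicate 3. The difference of Aqp2 was 0.83 without WT replicate 1, 0.049 without WT replicate 3 and 0.16 without L4 replicate 1. That of LePIP1 was 0.63 without WT replicate 1 and -0.0054 without WT replicate 3.

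Differences between the sectors were compared within root pools. None of the aquaporins was called between the sectors in the WT, in L4 or over both genotypes, nor was any other probe set (0% in each). None of them passed an unadjusted p of 0.05 with 1.2-fold, as 2.73%, 4.07% and 4.06% of all probe sets did in the WT, in L4 and over both. Arrays of the sectors overlapped for all 3 genes, while they were apart for 6.22% of all probe sets in the WT and 4.83% in L4. TIP was the gene with the most even direction, higher in the EC in 3 of 3 WT pools, by 0.016, 1.12 and 0.84, and in 2 of 3 L4 pools, at -1.58, 1.49 and 0.52. Its mean differences were 0.66 in the WT (standard error 0.60, interval -0.86 to 2.18, adjusted p = 1.00 from limma) and 0.14 in L4 (interval -1.38 to 1.66, adjusted p = 0.977). Both share 1 spread over the 2 genotypes. Fitted on the 6 arrays of each genotype alone, the standard error was 0.28 in the WT (adjusted p = 0.999 from limma) and 0.72 in L4. An even sign over 3 pools was seen for 21.1% of all probe sets in the WT. Over both genotypes TIP was at 0.40 (standard error 0.43, interval -0.68 to 1.48, adjusted p = 1.00 from limma). This was 0.83 without L4 replicate 1 (adjusted p = 0.698) and 0.063 without L4 replicate 2. In L4 its sign turned without replicate 2 (-0.53), without replicate 3 (-0.047) and with the spike-in covariate (-0.048).

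The EC minus S differences of both other aquaporins were uneven over the pools. Aqp2 had 0.38, 0.49 and -0.015 in the WT pools, a mean of 0.29 (standard error 0.90, interval -1.97 to 2.55, adjusted p = 1.00 from limma). This standard error draws on the spread of both genotypes. Fitted on the 6 WT arrays alone it was 0.15 (adjusted p = 0.999 from limma), and on the 6 L4 arrays alone 1.11. In the L4 pools Aqp2 had 1.27, -3.72 and -0.98, a mean of -1.15 (interval -3.41 to 1.11, adjusted p = 0.950), which was 0.14 without L4 replicate 2 and -2.35 without L4 replicate 1 (standard error 0.69, adjusted p = 0.517 from limma). LePIP1 had -0.23, 2.24 and -2.19 in the WT pools, a mean of -0.061 (standard error 0.99, interval -2.56 to 2.44, adjusted p = 1.00), which was -1.21 without WT replicate 2 and 1.00 without WT replicate 3. In the L4 pools it had 1.70, -1.56 and -0.73, a mean of -0.20 (interval -2.70 to 2.30, adjusted p = 0.979), which was 0.48 without L4 replicate 2 and 0.068 without L4 replicate 3. Differences of over 2 log2 units within single pools thus pointed both ways for LePIP1. Over both genotypes the differences were -0.43 for Aqp2 (interval -2.03 to 1.17) and -0.13 for LePIP1 (interval -1.90 to 1.64), each with an adjusted p of 1.00 from limma.

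Whether the genotype change differed between the sectors was tested as an interaction, the EC change minus the S change. The estimates were -1.43 for Aqp2 (standard error 1.27, interval -4.63 to 1.76, adjusted p = 0.983 from limma), -0.14 for LePIP1 (standard error 1.40, interval -3.68 to 3.40, adjusted p = 0.992) and -0.52 for TIP (standard error 0.86, interval -2.67 to 1.64, adjusted p = 0.983). Limma called 0% of all probe sets, and 2.40% but none of the aquaporins passed the unadjusted threshold. The estimate of Aqp2 was -0.15 without L4 replicate 2 and -2.64 without L4 replicate 1. That of TIP was 0.34 without L4 replicate 1, and that of LePIP1 turned positive without WT replicate 2 (1.01), L4 replicate 2 (0.54) or L4 replicate 3 (0.13).

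**Figure D4:**
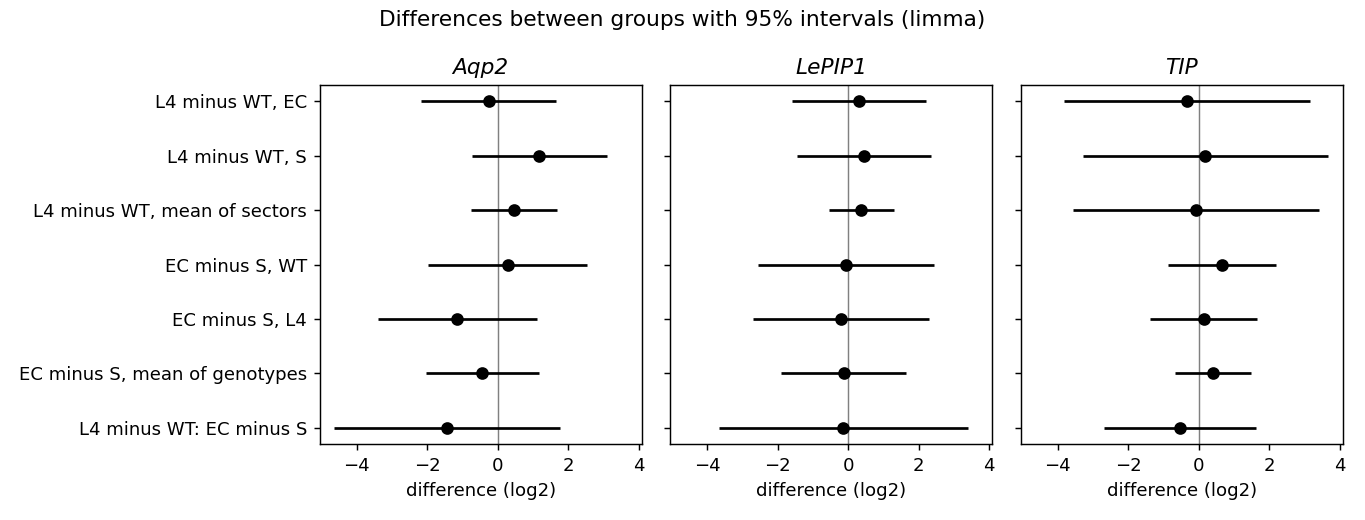
Estimated differences (points, log2, horizontal axis) with 95% intervals (lines) from limma for the 7 comparisons (vertical axis) of the 3 aquaporins. Every interval includes 0. For each genotype change the interval of TIP is the widest, such as -3.81 to 3.15 in the EC.

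The last question was which aquaporins were high on the same arrays. As a description over arrays that share root pools and an array scale, Pearson r was 0.62 between Aqp2 and LePIP1, -0.57 between Aqp2 and TIP and -0.43 between LePIP1 and TIP. After the group means were taken out the values were 0.64, -0.64 and -0.44, and without L4 EC replicate 2 they were 0.67, -0.65 and -0.43. Among the 587 other named probe sets that averaged 4 or more on the log2 scale, the 3 most like Aqp2 were Cel2, a glucanase gene of the cell wall (r = 0.87), CRY1A, a blue light receptor gene (0.84), and PLDa1, which encodes a phospholipase D (0.84). Cel2 had its highest value of 10.42 on L4 S replicate 2, where Aqp2 was highest too, and one of its lowest, 5.85, on L4 EC replicate 2. The 3 most like LePIP1 were RSI-1, a root gene known for its induction by auxin (0.81), the ACC oxidase gene ACO6 (0.81) and LOC543916, listed as XTH9, a xyloglucan enzyme gene (0.79). RSI-1 was lowest where LePIP1 was lowest, at 5.52 on WT EC replicate 3. The 3 most like TIP were the sulphate transporter gene ST1 (0.87), DES, a divinyl ether synthase gene (0.86), and LOC544142 (0.81). In WT replicate 1 ST1 was at 4.29 on the EC array and 2.57 on the S array, against 6.30 to 9.73 on the other WT arrays, and so shared the low values of that root pool. Without L4 EC replicate 2 the 9 correlations lay between 0.74 and 0.88.

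Genes that act beside aquaporins were counted from lists set by name. For other aquaporins 3 symbols match the letters (Sip1, SIP and pip1), and 9192 probe sets carry no symbol. The match was on symbol and synonym only, and whether these 3 are aquaporins was not checked. Of them 0 were called in any comparison. SIP passed the unadjusted threshold for EC minus S over both genotypes, as 4.06% of all probe sets did. Its estimate was 2.26 (standard error 0.86, unadjusted p = 0.044 from limma). The plasma membrane proton pumps LHA1 and LHA2, which energise transport across that membrane, had 0 of 2 called in any comparison. LHA1 lay between 10.89 and 11.69 in the EC of the WT and between 9.76 and 10.70 in that of L4, so that the groups did not overlap, as for 12.3% of the array. Its estimate there was -1.06 (standard error 0.48, adjusted p = 0.707 from limma). For the S the smaller p was that of LHA2, at -0.073 (adjusted p = 1.00). Of 8 probe sets matched by name to genes known for water deficit, 0 were called in any comparison. Positive estimates were seen for 7 in the EC and 5 in the S, as for 60.7% and 48.0% of all probe sets. The match was by letters here too: PRO1 is also listed with the synonym LePro1. Whether it is a gene of water deficit was not checked. The median of the 8 probe sets was 0.38 for the EC, against 0.075 for all probe sets, and 0.040 for the S, against -0.0053. Several had low signal. In the EC of the WT the means were 2.07 for TSW12, 2.13 and 1.99 for PRO1 and 2.75 for LE16. The lower quartiles of those arrays were 2.39 to 2.44. Others were higher, up to 5.69 for TAS14. In the EC of L4 TSW12 ranged from 2.05 to 8.58, so the EC median is no evidence of a shared direction. The smallest p in the EC was that of LE16, a lipid transfer protein gene, with values of 2.64 to 2.90 in the WT and 2.66 to 6.41 in L4 (change 1.40, standard error 0.76, adjusted p = 0.715 from limma). For the S it was that of TAS14, a dehydrin gene, with values of 1.83 to 7.99 in the WT and 6.65 to 7.72 in L4 (change 2.05, standard error 1.65, adjusted p = 1.00 from limma). The groups of LE16 and of TAS14 overlapped.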

How the data were processed

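RNA of laser-captured EC and S of WT and L4 roots was measured on 12 arrays, 3 per group, grouped by the sample titles. What the authors deposited are log2 expression values, obtained with GeneChip Command Console. The summarisation and normalization methods are not given in the sources used here. The study's supplementary methods were not used. The 108 array controls among the 10209 probe sets were removed, and the other 10101 were analysed with limma 3.58.1 in R 4.3.3, with no filter on signal. Genotype changes within a sector were fitted as 4 group means on all arrays (8 residual degrees of freedom), the change over both sectors on 6 pool means, and sector differences with the root pool as a fixed block (4 each). The functions were tested on simulated arrays. Members and lists were chosen with earlier results of these data known. Named genes are the 3 members, the 3 named probe sets most correlated with each and, of each list, the smallest p in the EC and the S. The lists were other aquaporins, proton pumps and genes known for water deficit. Alternatives were replicate blocks, fewer arrays, other normalizations, a signal filter, eBayes with trend, array weights, a spike-in covariate and arrays left out. The number of arrays limits the precision, and intervals follow the spread between replicates. No sequence was used. Plots were made with Python 3.11.15 and matplotlib 3.10.9.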

Additional observations from a re-analysis of the deposited data

How the results depend on the processing

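No aquaporin was called under any alternative run, but directions, sizes and counts over all probe sets moved. Quantile normalization turned Aqp2 in the EC to 0.17, TIP over both sectors to 0.060, and LePIP1 to 0.16 (EC minus S in L4), 0.038 (EC minus S over both genotypes) and 0.25 (interaction). The spike-in covariate turned Aqp2 in the EC to 0.54, Aqp2 between the sectors of the WT to -0.0058 and TIP between those of L4 to -0.048. Array weights turned LePIP1 in the EC to -0.28 and called 1467 probe sets for the EC and 2 for the S, in place of 0. They also moved TIP in the S from 0.19 to 1.98 (adjusted p = 1.00 from limma), Aqp2 in the S from 1.18 to 0.74 and LePIP1 in the S from 0.44 to 0.031, and the spike-in covariate moved TIP in the EC from -0.33 to -0.92. Fitting only the 6 arrays compared called 1 in the EC. Over both sectors 2 were called after median centring, 3 once those averaging under 4 on the log2 scale were dropped, and 2 with 4 group means of the 12 arrays and no replicate block (chosen after seeing the data). The cause of these shifts was not tested.

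With 1 array or root pool left out, the called probe sets ranged from 0 to 10 in the EC (10 without L4 replicate 1, 9 without WT replicate 1, 7 without L4 replicate 2), 0 to 3 in the S (3 without L4 replicate 1, 2 without WT replicate 3, 1 without L4 replicate 3) and 0 to 9 over both sectors (9 without WT replicate 1, 2 without L4 replicate 1, 1 without WT replicate 3), and stayed at 0 between the sectors and in the interaction. Over these settings Aqp2 ranged from -1.16 to 0.56 in the EC, -2.35 to 0.14 between the sectors of L4 and -1.03 to 0.21 between the sectors over both genotypes. LePIP1 ranged from -0.61 to 1.01 in the EC, -0.0042 to 1.02 in the S, -0.0054 to 0.63 over both sectors, -1.21 to 1.00 between the sectors of the WT, -1.15 to 0.48 between those of L4, -0.70 to 0.40 over both genotypes and -1.1998 to 1.01 in the interaction. TIP ranged from -2.04 to 0.69 in the EC, -1.201 to 1.12 in the S, -1.62 to 0.90 over both sectors, -0.53 to 1.00 between the sectors of L4, 0.063 to 0.83 between the sectors over both genotypes and -1.19 to 0.34 in the interaction.

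Samples with the same number deviated together only in part, so the pairing rests on the description of the design. Over all probe sets the correlation of same-numbered arrays was 0.062 to 0.63 between the sectors of the WT, -0.27 to 0.031 between those of L4, -0.10 to 0.28 between the genotypes in the EC and 0.070 to 0.38 in the S. Arrays with different numbers had -0.53 to 0.52 between the sectors of the WT and -0.24 to 0.32 between those of L4. WT EC replicate 3 was closer to WT S replicate 2 (0.52) than to WT S replicate 3 (0.062). The correlations thus do not single out the pairing by number. With the replicate number as a block limma called 0 probe sets for the EC, 0 for the S and 0 over both sectors, and without the block 0 between the sectors. In this balanced design the block cannot move an estimate, such as 1.18 for Aqp2 in the S. It changed standard errors, from 0.48 to 0.26 for Aqp2 over both sectors, from 1.55 to 1.198 for TIP in the EC and from 0.84 to 0.91 for LePIP1 in the EC, and no aquaporin was called.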
